A study of Homo sapiens with 24 samples.

Results

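The nuclear cysteine tRNAs are the tRNAs encoded in the nuclear genome that carry cysteine to the ribosome, and all of them in these data bear the anticodon GCA. They were taken by name, as the family Cys-GCA in the tables that sum reads by anticodon and as every human entry named tRNA-Cys in the tables of isodecoders, the name for tRNAs that carry one anticodon on bodies differing elsewhere. This gave 1 of 74 anticodon entries and 23 of 286 isodecoder entries, and the mitochondrial cysteine tRNA was not included. The cells were HEK293T, a human embryonic kidney line, either wild type or with the gene of the dihydrouridine synthase DUS1L, DUS2L or DUS3L knocked out, all collected without drug treatment. The 24 libraries, made from gel-isolated tRNA with E. coli tRNA added as a spike-in, fell into 8 groups of 3. These were 2 wild-type sets and 2 clones of each knockout, labelled KO 1-9 and KO 2-4 for DUS1L, KO 1-8 and KO 2-1 for DUS2L, and KO 1-5 and KO 2-8 for DUS3L. The deposited tables call the clones #1 and #2 without saying which label is which, so the numbers of the tables are used here. The labels do not say how the knockout lines, called clones here, were derived, and a difference seen in only 1 of them cannot be told apart from one particular to that line. Nothing in the labels ties the 3 libraries of a group to separate cultures, and the spread that the p-values rest on may be technical.

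A tRNA is charged with its amino acid by a dedicated synthetase, which for cysteine in the human cytosol is CARS1, and the charged cysteine tRNA reads the codons UGC and UGU. Dihydrouridine, made by the DUS enzymes from uridines of tRNA, gives its name to the D loop, where DUS1L and DUS2L act, while DUS3L acts in the variable loop. The human genome holds many cysteine tRNA genes, most of them in a single cluster on chromosome 7, and they differ in a few bases, so that reads of near-identical isodecoders can be assigned to one another. Modified bases can also stop or misdirect the reverse transcription on which such libraries depend, and a change in reads is therefore not by itself a change in the number of tRNA molecules.

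All 23 entries matched a RefSeq gene of GRCh38, with lengths of 70 to 73 bases, so that levels can be compared between entries without correction for length. Of these genes, 15 lie on chromosome 7 between positions 149310190 and 149691252, a stretch of 381 kb, and 6 of the 15 stand in introns of the transcribed pseudogene ZNF767P. The other 8 lie on chromosomes 17 (3 genes), 3 (2 genes), 1, 14 and 15. The most abundant entry, tRNA-Cys-GCA-4-1, lies on chromosome 17 at 38869292 to 38869363, outside any annotated gene, close to tRNA-Cys-GCA-14-1 (38861684 to 38861755) and tRNA-Cys-GCA-2-2 (38867645 to 38867716). tRNA-Cys-GCA-6-1 (chromosome 3, 132229100 to 132229171) lies in an intron of CPNE4, which encodes a copine, a calcium-dependent membrane-binding protein. For the entries tRNA-Cys-GCA-2-2 and tRNA-Cys-GCA-9-1, RefSeq holds 4 genes each of the same isodecoder number, so that the position printed can stand for other copies.

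The deposited tables give the mean normalised count over a table's libraries and, for each clone, the log2 fold change against wild type with its p-value, but no values per library. The level of each group was therefore recovered from the mean and both fold changes, in normalised counts, and the error printed after each log2 fold change is the standard error (SE) recovered from its p-value. A tRNA is said to have risen or fallen where the authors' p-value, adjusted by the Benjamini-Hochberg method over the whole column, was under 0.05. Summed over all anticodon entries, the mean normalised count was 1278868 for DUS1L, 2649825 for DUS2L and 817514 for DUS3L, and each table was scaled separately. The recovered wild-type levels of the DUS2L table were 2.23 to 2.33 times those of the DUS1L table over 13 cysteine entries with at least 10 normalised counts in both, a near-constant ratio, which is what a single wild-type set under 2 scalings gives. Between the DUS3L and DUS1L tables the ratio ran from 0.0883 to 1.28 over 10 entries, and the DUS3L table is therefore taken to rest on the other set. Results for DUS1L and DUS2L thus share their controls. The DUS mRNAs are not among the entries, and the loss of each enzyme was not checked.

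As a family, the cysteine tRNAs passed the test in none of the 6 clone comparisons. Cys-GCA stood at a recovered 3780 normalised counts in wild type, 5144 in DUS1L clone #1 and 3963 in clone #2. In the authors' deposited table these were log2 fold changes of 0.44 ± 0.49 (adjusted p = 0.61) and 0.07 ± 0.49 (adjusted p = 0.963). In the DUS2L table the family stood at 8534 in wild type against 4854 and 4663 in the clones, both below wild type. The log2 fold changes in the authors' deposited table were -0.81 ± 0.48 (adjusted p = 0.155) and -0.87 ± 0.48 (adjusted p = 0.129). The 95% interval was -1.76 to 0.13 in clone #1 and -1.82 to 0.07 in clone #2, so that an unaltered level lay inside both intervals. In the DUS3L table the levels were 908, 788 and 1017 normalised counts, and the authors' deposited table gave -0.21 ± 0.32 (adjusted p = 0.796) and 0.16 ± 0.32 (adjusted p = 0.785), with intervals of -0.82 to 0.41 and -0.46 to 0.78. Among all anticodon entries, 5.71% passed in DUS1L clone #1 and 0% in clone #2, 35.2% and 42.3% in the DUS2L clones, and 8.11% and 5.41% in the DUS3L clones.

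Against the other nuclear families Cys-GCA lay near the middle. The median nuclear family stood at -1.10 in DUS2L clone #1 and -0.45 in clone #2, so that the difference of Cys-GCA from the median was 0.28 in clone #1 and -0.42 in clone #2 on the log2 scale. In the other 4 comparisons its distance from the median family ran from -0.12 to 0.49. Cys-GCA ranked between 28 and 34 of 49 nuclear families by level in every group, and it made up 0.335% of the nuclear tRNA level in the DUS1L wild type, against 0.525% and 0.478% in the DUS1L clones. The share was 0.304% and 0.186% in the DUS2L clones. In the DUS3L table it was 0.192% in wild type and 0.0855% and 0.109% in the clones, with no test of these shares. The clones of a knockout differed for the family by 0.38 ± 0.70 (DUS1L), 0.06 ± 0.68 (DUS2L) and -0.37 ± 0.45 (DUS3L) on the log2 scale, with adjusted p-values of 0.985, 0.993 and 0.797, where 0%, 0% and 1.35% of all families differed between clones. Between knockouts, with both clones averaged, the log2 fold change of the family was lower in DUS2L than in DUS1L by a difference of -1.10 ± 0.69 (adjusted p = 0.275) and than in DUS3L by -0.82 ± 0.58 (adjusted p = 0.274), and that of DUS3L differed from DUS1L by -0.28 ± 0.58 (adjusted p = 0.973). None of the 3 differences passed, where 16.4%, 19.7% and 0% of all families did. The SE of DUS2L against DUS1L counts their shared wild type on both sides and can be too large. DUS3L is measured against the other wild-type set, so its differences compare fold changes and not levels. By share of the nuclear tRNA level the family was higher in the DUS2L clones than in the DUS3L clones.

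**Figure D1:**
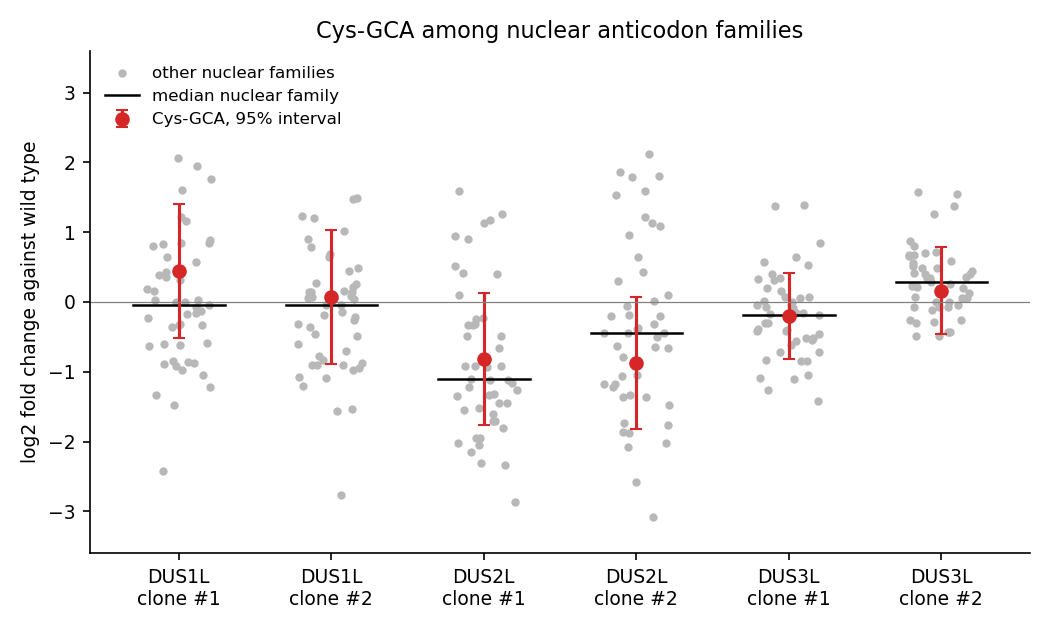
Log2 fold change of each knockout clone against wild type (vertical axis) for Cys-GCA (red points with 95% intervals) and the other nuclear anticodon families (grey points), with the median family as a black line. Cys-GCA lies within 0.49 of the median family in all 6 comparisons, and 2 grey points above the axis limit, both of DUS2L, are not drawn.

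The 3 nuclear families whose 6 log2 fold changes were nearest to those of Cys-GCA by Euclidean distance were Glu-CTC (distance 0.762), Pro-TGG (0.849) and Asp-GTC (1.05), against a median distance of 2.06 over 48 families. In the authors' deposited table Glu-CTC, a glutamate tRNA, stood at 0.64 and 0.27 in the DUS1L clones, -1.27 and -1.18 in the DUS2L clones and -0.52 and 0.49 in the DUS3L clones.

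The isodecoders were then taken one by one. Of the 23 entries, 14 had a mean of at least 10 normalised counts in the DUS1L table, 17 in the DUS2L table and 13 in the DUS3L table. tRNA-Cys-GCA-13-1 was listed at 0 in the DUS2L and DUS3L tables, and tRNA-Cys-GCA-9-1 and tRNA-Cys-GCA-22-1 at 0 in the DUS3L table. In the DUS1L clones 3 cysteine isodecoders rose and 0 fell in clone #1, or 13% of the 23 tested, where 20.7% of all entries passed (15.6% higher and 5.09% lower). In clone #2, 1 rose and 1 fell, or 8.7%, where 8.36% of all entries passed (2.55% higher and 5.82% lower). In DUS2L, 3 rose and 7 fell in clone #1, or 45.5% of 22 tested, where 54% of all entries passed (16.7% higher and 37.3% lower). In clone #2, 3 rose and 6 fell, or 40.9%, where 52.2% passed (21.4% higher and 30.8% lower). In DUS3L, 0 rose and 1 fell in clone #1, or 5% of 20 tested, where 7.8% of all entries passed (2.48% higher and 5.32% lower). In clone #2, 2 rose and 0 fell, or 10%, where 11.7% passed (10.6% higher and 1.06% lower). The share of cysteine entries that passed was thus close to or below that of all entries in each comparison. The median log2 fold change over the cysteine entries was 0.49 and -0.27 in the DUS1L clones, where that of all nuclear entries was 0.20 and -0.19. It was -1.01 and -0.59 in the DUS2L clones, where that of all nuclear entries was -1.02 and -0.55, and 0.09 and -0.22 in the DUS3L clones, where it was -0.04 and 0.22.

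**Figure D2:**
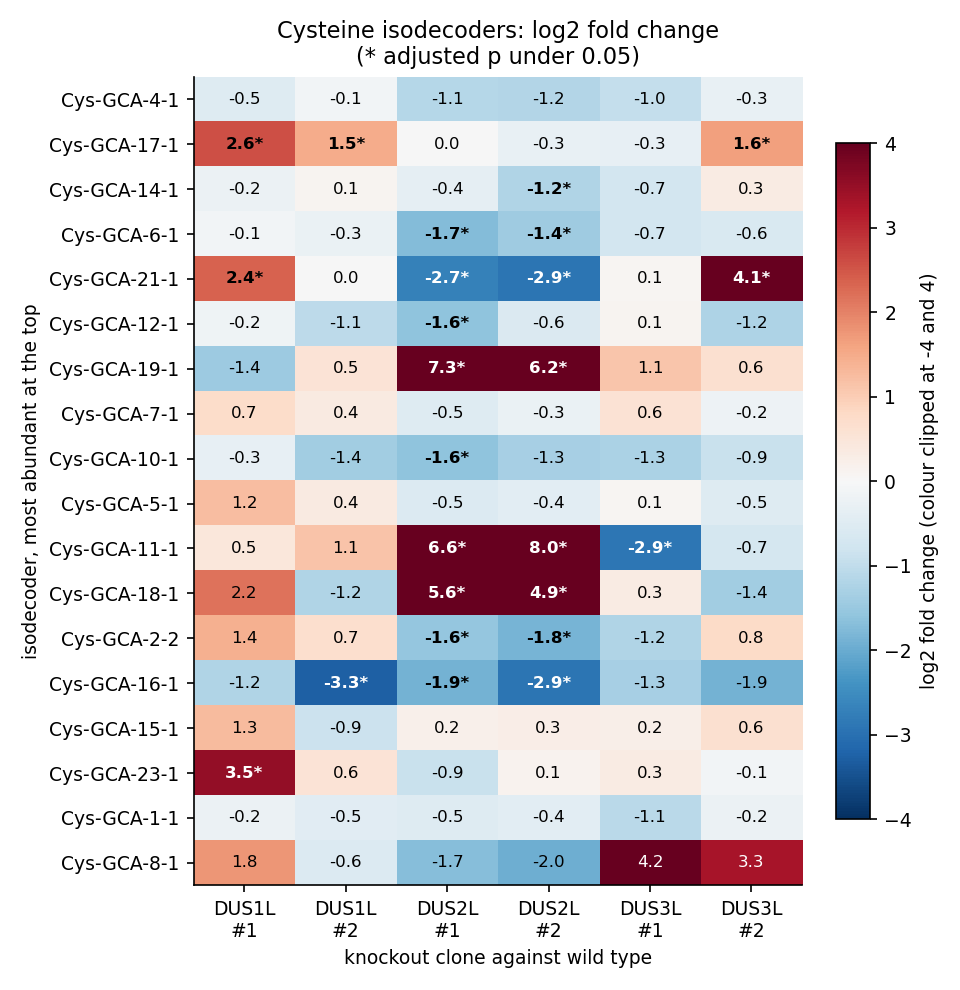
Log2 fold change of each knockout clone against wild type for the 18 cysteine isodecoders with a mean of at least 10 normalised counts in at least 1 table, ordered by their mean, with colour clipped at -4 and 4. Starred values passed at an adjusted p under 0.05, and the 3 rows at 4.92 or more in both DUS2L clones are those of Cys-GCA-19-1, Cys-GCA-11-1 and Cys-GCA-18-1.

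tRNA-Cys-GCA-4-1 alone made up 60.1% of the cysteine tRNA in the DUS1L wild type. It stood at 2271 normalised counts there, 1596 in DUS1L clone #1 and 2128 in clone #2, and did not pass (-0.51 ± 0.55 and -0.09 ± 0.55 in the authors' deposited table). In DUS2L it stood at 5112 in wild type and at 2310 and 2259 in the clones, both below wild type. The changes of -1.15 ± 0.53 (adjusted p = 0.0574) and -1.18 ± 0.53 (adjusted p = 0.0518) in the authors' deposited table missed the threshold. The clone #2 value passed where only entries with a mean of at least 10 (adjusted p = 0.0489) or at least 100 (adjusted p = 0.0490) were tested. In DUS3L it went from 389 to 199 and 314 (-0.97 ± 0.48 and -0.31 ± 0.48 in the authors' deposited table, neither past the threshold). Its share of the cysteine tRNA was lower in all 6 clones than in their wild type, at 31% and 53.7% in the DUS1L clones, 47.6% and 48.4% against 59.9% in DUS2L, and 25.2% and 30.8% against 42.9% in DUS3L, without a test.

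After tRNA-Cys-GCA-4-1, the most abundant entries outside chromosome 7 in the DUS2L wild type were tRNA-Cys-GCA-14-1 and tRNA-Cys-GCA-6-1. tRNA-Cys-GCA-6-1 held 594 normalised counts in that wild type and 180 and 222 in the clones. It fell in both, with log2 fold changes of -1.72 ± 0.57 (adjusted p = 0.00598) and -1.42 ± 0.56 (adjusted p = 0.0255) in the authors' deposited table, where 26.8% of all entries fell in both DUS2L clones. With each clone centred on its median nuclear entry neither call held (-0.70 and -0.87). Relative to the spike-ins the clone #1 call held (-1.46, adjusted p = 0.0254) and the clone #2 call was lost (-0.95, adjusted p = 0.162). tRNA-Cys-GCA-14-1 went from 674 to 528 and 293 in DUS2L and fell in clone #2 only (-1.20 ± 0.52, adjusted p = 0.0409, in the authors' deposited table). That call was lost after centring and also relative to the spike-ins (-0.74, adjusted p = 0.241). Neither entry passed in a DUS1L or DUS3L clone, where the changes lay between -0.75 and 0.34.

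tRNA-Cys-GCA-17-1, on chromosome 7 at 149691181 to 149691252 outside any annotated gene, was the only cysteine isodecoder that rose in both DUS1L clones. It went from 282 normalised counts in wild type to 1675 in clone #1 and 786 in clone #2. In the authors' deposited table this was 2.57 ± 0.43 (adjusted p = 2.14e-07) and 1.48 ± 0.43 (adjusted p = 0.0109), where 1.45% of all entries rose in both clones. In clone #1 it became the most abundant cysteine isodecoder, with 32.6% of the cysteine tRNA against 7.47% in wild type. In the DUS2L table it held 643 in wild type and 640 and 529 in the clones, without passing (-0.01 ± 0.46 and -0.28 ± 0.46 in the authors' deposited table). In the DUS3L table it went from 58.9 to 47.3 in clone #1 and rose to 183 in clone #2 (-0.32 ± 0.48 and 1.64 ± 0.48, adjusted p = 0.726 and 0.00646, in the authors' deposited table).

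tRNA-Cys-GCA-21-1, on chromosome 7 at 149664824 to 149664895, passed in at least 1 clone of every knockout, with opposite directions. In the DUS1L table it held 111 normalised counts in wild type, 576 in clone #1 and 111 in clone #2, so that the rise in clone #1 (2.37 ± 0.48 in the authors' deposited table, adjusted p = 2.15e-05) had no counterpart in clone #2 (adjusted p = 1). In the DUS2L table it fell from 259 to 40.2 and 33.9, a change of -2.69 ± 0.53 (adjusted p = 3.18e-06) and -2.93 ± 0.52 (adjusted p = 1.35e-07) in the authors' deposited table. In the DUS3L table it held 3.14 in wild type, 3.33 in clone #1 and 55.1 in clone #2, a rise of 4.13 ± 0.89 in clone #2 only (adjusted p = 7.39e-05) in the authors' deposited table. The wild type came to 9.42 normalised counts over its 3 libraries, so the size of that fold rests on few reads. The differences between clones, 2.37 ± 0.68 in DUS1L and -4.05 ± 1.32 in DUS3L, had adjusted p-values of 0.0666 and 0.061. Both tRNA-Cys-GCA-17-1 and tRNA-Cys-GCA-21-1 were thus highest in DUS1L clone #1 and DUS3L clone #2 of their tables. No cysteine entry differed between the clones of a knockout at an adjusted p under 0.05, where 0% of all entries did so in DUS1L, 0.364% in DUS2L and 2.52% in DUS3L. At an unadjusted p under 0.05 there were 3 in DUS1L, 0 in DUS2L and 3 in DUS3L. The share of all entries at that unadjusted threshold is not given here, and nothing is concluded from these counts.

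The largest rises were those of 3 chromosome 7 isodecoders that were nearly missing from the DUS2L wild type and rose in both DUS2L clones, where 16.7% of all entries rose in both. tRNA-Cys-GCA-11-1 (149415138 to 149415209) went from a recovered 1.45 normalised counts to 136 and 373, or 6.55 ± 1.12 and 8.00 ± 1.12 in the authors' deposited table (adjusted p = 5.66e-08 and 1.21e-11). tRNA-Cys-GCA-19-1 (149613065 to 149613136, in an intron of ZNF767P) went from 1.47 to 234 and 108, or 7.31 ± 1.19 and 6.19 ± 1.19 in the authors' deposited table (adjusted p = 1.08e-08 and 1.17e-06). tRNA-Cys-GCA-18-1 (149375759 to 149375830) went from 4.37 to 215 and 133, or 5.62 ± 0.80 and 4.92 ± 0.80 in the authors' deposited table (adjusted p = 5.5e-11 and 8.66e-09). Together they held 0.0855% of the cysteine tRNA in that wild type and 12.1% and 13.2% in the DUS2L clones. Summed over the 3 wild-type libraries they came to 21.9 normalised counts, and the raw counts behind them are not known, so these folds rest on few wild-type reads and their exact size is not fixed by the data.

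The wild type of the DUS3L table was unlike that of the DUS2L table for the same isodecoders. tRNA-Cys-GCA-19-1 held 138 normalised counts there, or 15.2% of the cysteine tRNA, and tRNA-Cys-GCA-11-1 held 57.3, or 6.31%. tRNA-Cys-GCA-18-1 held 2.19, or 0.242%. Reads of tRNA-Cys-GCA-19-1 and tRNA-Cys-GCA-11-1 were thus present in clear amounts in the wild-type libraries of one set and almost absent from those of the other. Whether the cells, the libraries or the assignment of reads differed was not tested. The share of tRNA-Cys-GCA-19-1 in that set was above those of the DUS2L clones (4.81% and 2.31%), and that of tRNA-Cys-GCA-11-1 lay between them (2.81% and 8.00%). For these 2 isodecoders the rise in the DUS2L clones was measured against the wild-type set with the low level only, and the part of the wild-type set in it was not tested. Over all families, 36 nuclear entries with a test in both DUS2L clones had a recovered DUS2L wild-type level under 10, and 17 of the 36 held at least 10 in the DUS3L wild type. Of the 36, 19 rose in both DUS2L clones, and all 17 were among these 19, a count made after the values were seen and given as a description. The 36 were picked for a low level in the wild type against which the rises were measured. Entries low in every group could hardly pass, so the overlap is in part set by that choice. In the DUS3L clones tRNA-Cys-GCA-19-1 stood at 297 and 215 (1.11 ± 0.40 and 0.64 ± 0.40 in the authors' deposited table, adjusted p = 0.0543 and 0.446). tRNA-Cys-GCA-11-1 fell to 7.66 in clone #1 (-2.90 ± 0.61, adjusted p = 0.00011, in the authors' deposited table) and stood at 35.4 in clone #2 (adjusted p = 0.632). In the DUS1L table all 3 isodecoders together held 3.10 normalised counts in wild type and 9.67 and 2.92 in the clones, and none passed.

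**Figure D3:**
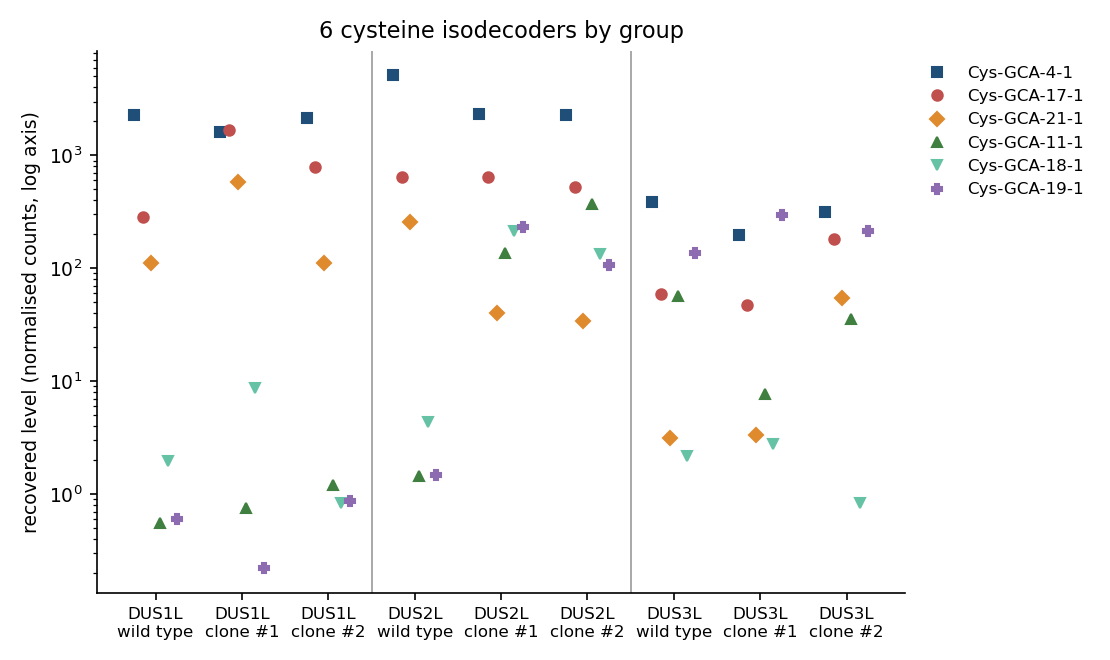
Recovered level, in normalised counts on a log axis, of 6 cysteine isodecoders in the wild type and both clones of each table, with lines between tables that were scaled separately. Cys-GCA-11-1 and Cys-GCA-19-1 lie under 2 in all DUS1L groups and in the DUS2L wild type, and at 57.3 and 138 in the DUS3L wild type.

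Among the low and middle entries of DUS2L, tRNA-Cys-GCA-16-1 (chromosome 7, 149546540 to 149546611) fell from 136 to 36.5 and 18.1 (-1.90 ± 0.80 and -2.91 ± 0.79, adjusted p = 0.0346 and 0.000844, in the authors' deposited table). The clone #1 call was lost after centring (-0.87, adjusted p = 0.416) and relative to the spike-ins (-1.63, adjusted p = 0.0807). In the DUS1L table it went from 61 to 26.5 and 6.32 and fell in clone #2 only (-3.27 ± 0.86, adjusted p = 0.00345, in the authors' deposited table), the single cysteine entry to fall in a DUS1L clone. tRNA-Cys-GCA-2-2 fell from 79.8 to 27.2 and 22.2 in DUS2L (-1.55 ± 0.57 and -1.85 ± 0.55, adjusted p = 0.0143 and 0.00236, in the authors' deposited table), while in DUS1L it stood at 35.2, 93.3 and 56 without passing. Its clone #1 call was also lost after centring (-0.53, adjusted p = 0.494) and relative to the spike-ins (-1.29, adjusted p = 0.0519). tRNA-Cys-GCA-12-1 (chromosome 7, 149646955 to 149647026) went from 309 to 102 and 207 and fell in DUS2L clone #1 only (-1.60 ± 0.44, adjusted p = 0.000922, in the authors' deposited table), a call that centring ended (-0.57, adjusted p = 0.328). The remaining entries that passed are named outside the rule for named entries, after their values were seen. tRNA-Cys-GCA-10-1 fell in DUS2L clone #1 (274 to 90.5), tRNA-Cys-GCA-9-1 in DUS2L clone #1 and tRNA-Cys-GCA-20-1 in DUS2L clone #2, the last 2 with means under 10. tRNA-Cys-GCA-23-1 rose in DUS1L clone #1, from 5.68 to 64.3 (3.50 ± 0.76, adjusted p = 0.000103, in the authors' deposited table), with 17.1 normalised counts over the 3 wild-type libraries. In all, 14 of the 23 entries passed in at least 1 clone comparison. The same count over all entries is not given here, so the 14 cannot be judged against it. In the DUS2L clones 54% and 52.2% of all entries passed.

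The other 9 passed in none. Besides tRNA-Cys-GCA-4-1, the higher of these were tRNA-Cys-GCA-5-1 on chromosome 15 (79744655 to 79744727) and tRNA-Cys-GCA-7-1 on chromosome 1 (93516277 to 93516349, in an intron of FNBP1L, which encodes a membrane-bending protein of endocytosis). tRNA-Cys-GCA-5-1 held 67.3 normalised counts in the DUS1L wild type and 159 and 85.8 in the clones, and the change in clone #1 missed the threshold (1.24 ± 0.49, adjusted p = 0.0514, in the authors' deposited table) but passed among entries with a mean of at least 10 (adjusted p = 0.0455). In DUS2L it held 153 against 105 and 114. tRNA-Cys-GCA-7-1 held 76.3, 126 and 97.2 in the DUS1L table and 170, 119 and 143 in the DUS2L table. Both thus stood above wild type in the DUS1L clones and below it in the DUS2L clones without passing. tRNA-Cys-GCA-1-1, tRNA-Cys-GCA-3-1, tRNA-Cys-GCA-8-1 and tRNA-Cys-GCA-15-1 had means of 1.49 to 45.2 in the 3 tables, and tRNA-Cys-GCA-13-1 and tRNA-Cys-GCA-22-1 had means under 1 wherever they were not listed at 0.

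The falls in DUS2L depended on the reference. The median nuclear entry stood at -1.02 in clone #1 and -0.55 in clone #2 of the isodecoder table, and the spike-ins averaged -0.27 and -0.46. With each clone centred on its median nuclear entry, 3 cysteine isodecoders were higher and 1 lower in clone #1, and 3 were higher and 4 lower in clone #2. With the spike-ins as reference these were 3 higher and 3 lower, and 3 higher and 4 lower. The shares of all entries called under these references are not given here, so the counts are set only against those as deposited. tRNA-Cys-GCA-21-1 was lower in both clones under each reference (-1.66 and -2.38 after centring), and the rises of tRNA-Cys-GCA-11-1, tRNA-Cys-GCA-18-1 and tRNA-Cys-GCA-19-1 passed under each. All of these were measured against the same wild-type set. tRNA-Cys-GCA-21-1 held 3.03% of the cysteine tRNA in that set and 0.827% and 0.727% in the DUS2L clones, but 0.346% in the DUS3L wild type. The part of the wild-type set in its fall was not tested.

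By locus, all the rises among cysteine isodecoders with every entry tested, in whichever clone, were those of chromosome 7 genes. Among entries with a mean of at least 10, tRNA-Cys-GCA-5-1 on chromosome 15 also passed in DUS1L clone #1 (adjusted p = 0.0455). The 15 chromosome 7 entries rose in 3 and 1 cases in the DUS1L clones, 3 and 3 in the DUS2L clones and 0 and 2 in the DUS3L clones, and the 8 entries of other chromosomes in 0 cases in each. Of all entries, 15.6% and 2.55% rose in the DUS1L clones, 16.7% and 21.4% in the DUS2L clones and 2.48% and 10.6% in the DUS3L clones. At such shares few of 8 entries would rise, so their 0 cases are not read as a trait of the locus. The other chromosomes' entries fell in 3 cases in each DUS2L clone and in 0 in the other 4 clones, and those of chromosome 7 in 4 and 3 cases in the DUS2L clones, 0 and 1 in the DUS1L clones and 1 and 0 in the DUS3L clones. Of all entries, 37.3% and 30.8% fell in the DUS2L clones, 5.09% and 5.82% in the DUS1L clones and 5.32% and 1.06% in the DUS3L clones. The share of the cysteine tRNA that came from chromosome 7 was 20.1% in the DUS1L wild type and 51.4% and 26.4% in its clones. It was 20.2%, 32.5% and 34.4% in the DUS2L table and 39.2%, 55.8% and 55.2% in the DUS3L table. In each table both clones thus stood above their wild type, without a test, and the grouping by locus is a description. A few entries held much of the gain. tRNA-Cys-GCA-17-1 held 7.47% in the DUS1L wild type, 32.6% in clone #1 and 19.8% in clone #2. For DUS2L, Cys-GCA-11-1, Cys-GCA-18-1 and Cys-GCA-19-1 summed to 0.0855% in wild type, against 12.1% and 13.2% in the clones. Cys-GCA-19-1 made up 15.2% in the DUS3L wild type, 37.7% in clone #1 and 21.1% in clone #2. The shares of Cys-GCA-10-1 and Cys-GCA-16-1 were below wild type in every clone. No trait of the whole locus is read from this. The median log2 fold change of the chromosome 7 entries was 0.45 and -0.86 in the DUS1L clones. That of the other chromosomes was 0.60 and 0.01. The medians were -0.70 and -0.35 against -1.35 and -1.31 in the DUS2L clones, and 0.10 and -0.23 against -0.74 and -0.21 in the DUS3L clones.

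**Figure D4:**
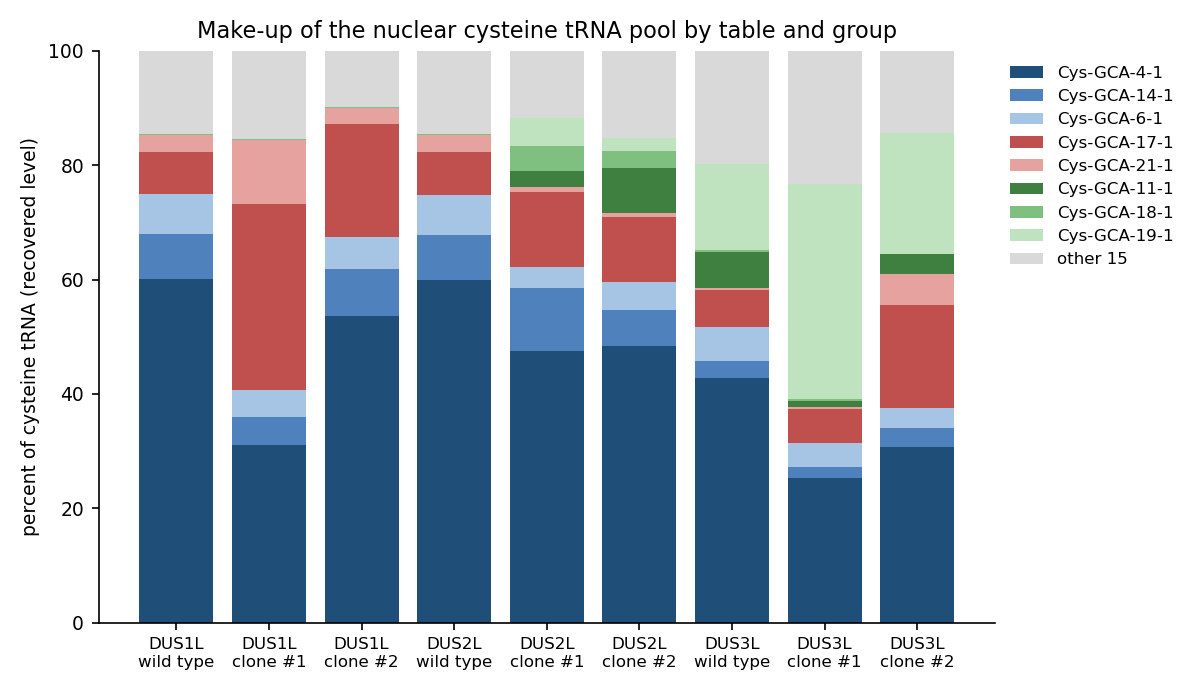
Percent of the nuclear cysteine tRNA (recovered levels, stacked to 100) held by 8 isodecoders and by the other 15 together, in the wild type and both clones of each table. Blue entries lie outside chromosome 7, red and green ones on it, and Cys-GCA-4-1 goes from 60.1% in the DUS1L wild type to 31% in DUS1L clone #1 as Cys-GCA-17-1 reaches 32.6%.

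The knockouts were then set against each other, with the mean of both clones and an SE that treats the errors of both clones as fully correlated, over 3 pairs. tRNA-Cys-GCA-21-1 averaged -2.81 in DUS2L and 1.18 in DUS1L, a difference of -3.99 ± 0.71 (adjusted p = 6.27e-07), and tRNA-Cys-GCA-17-1 averaged -0.14 and 2.02, a difference of -2.17 ± 0.62 (adjusted p = 0.00325). tRNA-Cys-GCA-2-2 (-1.70 against 1.04, adjusted p = 0.00409) was lower in DUS2L than in DUS1L and tRNA-Cys-GCA-18-1 (5.27 against 0.47, adjusted p = 0.0284) was higher, where 29.5% of all entries differed between these knockouts. After centring, the differences of tRNA-Cys-GCA-17-1 (-1.37, adjusted p = 0.0861) and tRNA-Cys-GCA-2-2 (-1.95, adjusted p = 0.0529) no longer passed. tRNA-Cys-GCA-11-1 and tRNA-Cys-GCA-19-1 did not pass between DUS2L and DUS1L (adjusted p = 0.123 and 0.162), with differences of 6.48 ± 3.28 and 7.20 ± 3.97. The shared wild type enters both sides of such a difference, so these SEs can be too large. In the clones, tRNA-Cys-GCA-11-1 stood at 136 and 373 for DUS2L and at 0.75 and 1.21 for DUS1L. tRNA-Cys-GCA-19-1 stood at 234 and 108 against 0.22 and 0.87, the tables being scaled separately. Between DUS2L and DUS3L, the log2 fold changes of tRNA-Cys-GCA-11-1, tRNA-Cys-GCA-18-1 and tRNA-Cys-GCA-19-1 were higher in DUS2L and that of tRNA-Cys-GCA-21-1 was lower (adjusted p = 1.71e-11, 0.019, 2.07e-05 and 3.1e-05), where 35.3% of all entries differed. These fold changes are against different wild-type sets, in which tRNA-Cys-GCA-19-1 held 1.47 (DUS2L) and 138 (DUS3L) normalised counts. Its share of the cysteine tRNA was lower in the DUS2L clones (4.81% and 2.31%) than in the DUS3L clones (37.7% and 21.1%). None of the named isodecoders differed between DUS3L and DUS1L, where 4.18% of all entries did.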

How the data were processed

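Per the labels' protocols, tRNA was gel-extracted from TRIzol RNA and made into small RNA libraries. Tools given in the submitters' processing notes are DESeq2, featureCounts, STAR and fastp, with the build hg38 and no versions; how reads matching several tRNA genes were treated is not given in the sources used here. Per the file headers, the authors deposited the mean of normalised counts (here treated as a signal), and for each clone a log2 fold change and an unadjusted p-value. There are no values per library.

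From these, Benjamini-Hochberg adjusted p-values were computed within each column over all rows that had a p-value. An SE was obtained by dividing the log2 fold change by the normal quantile belonging to its p-value. Group levels are those that give the deposited mean and the fold changes of both clones with 3 libraries in each of 3 groups, and those of the cysteine isodecoders then summed to that of the family (3780 and 3780 in the DUS1L wild type). For the difference between clones the squared SEs were added, which overstates the error, since the wild type is shared. They were also added between knockouts, which can overstate the error of DUS2L against DUS1L for the same reason. Simulated data tested the adjustment, the recovered wild-type level and the calls against wild type, in isodecoder entries averaging 100 or more. Comparisons between clones and between knockouts, the alternative references, the shares and entries of lower mean were not tested in this way. The work was done in Python 3.11.15 with numpy 2.4.6 and pandas 2.3.3. The quantiles came from scipy 1.17.1 and the figures from matplotlib 3.10.9. Depth is known only as normalised counts, so no counting interval is given. RefSeq GRCh38.p14, the build also called hg38, placed the genes, and GENCODE 29 their host genes.

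Members and lists were chosen with earlier results of these data known. Named isodecoders are the 6 with the highest mean over the tables, those of mean 10 or more that passed in the same direction in both clones of a knockout (at most 6 for each), and those that passed in a clone of every knockout. Alternatives changed the reference (median nuclear row or spike-ins), the threshold (adjusted p under 0.01, or a log2 change of 1 or more as well), the minimum mean (10 or 100) or summed the isodecoders in place of the family row.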

Additional observations from a re-analysis of the deposited data

Results flagged for a closer look

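Results were singled out here where the effects of 2 knockouts, each the mean of both clones against wild type, differed at an adjusted p under 0.05. The test of isodecoders between knockouts was chosen after the data were seen. DUS2L minus DUS1L was -2.17 on the log2 scale for tRNA-Cys-GCA-17-1, 4.80 for tRNA-Cys-GCA-18-1, -2.74 for tRNA-Cys-GCA-2-2 and -3.99 for tRNA-Cys-GCA-21-1, with the same wild-type libraries in both tables. DUS2L minus DUS3L was 9.07 for tRNA-Cys-GCA-11-1, 5.80 for tRNA-Cys-GCA-18-1, 5.87 for tRNA-Cys-GCA-19-1 and -4.92 for tRNA-Cys-GCA-21-1. For these the wild-type sets differ as well as the knockouts. In the wild types of the DUS2L and DUS3L tables tRNA-Cys-GCA-11-1 held 0.017% and 6.31% of the cysteine tRNA, tRNA-Cys-GCA-19-1 0.0173% and 15.2%, and tRNA-Cys-GCA-21-1 3.03% and 0.346%. The part of the wild-type set in these differences cannot be told apart from that of the knockout.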

How the results depend on the processing

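No paired analysis was possible because the tables hold no values per library, and leaving out each replicate was not run for the same reason. Cys-GCA missed the threshold under each alternative that tested it. The 3 rises in each DUS2L clone kept their number under all alternatives.

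The number of isodecoders that fell in DUS2L clone #1, 7 as deposited, was 1 after centring on the median nuclear row, 3 relative to the spike-ins, 3 at an adjusted p under 0.01 and 4 with a mean of at least 100. The number that rose in DUS3L clone #1, 0 as deposited, was 1 after centring, 1 with a mean of at least 10 and 1 with a mean of at least 100, the entry being tRNA-Cys-GCA-19-1 (centred value 1.15). With a mean of at least 100, 0 fell in DUS1L clone #2, 0 fell in DUS3L clone #1 and 0 rose in DUS3L clone #2, each with fewer entries tested. For none of the alternatives is the share of all entries called given here. At an adjusted p under 0.01, 0 rose in DUS1L clone #2. Testing only entries with a mean of at least 10 added calls for tRNA-Cys-GCA-5-1 in DUS1L clone #1 (adjusted p = 0.0455) and tRNA-Cys-GCA-4-1 in DUS2L clone #2 (adjusted p = 0.0489).

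Values that changed sign were all short of the threshold in both settings. For Cys-GCA, centring gave 0.28 in DUS2L clone #1, -0.12 in DUS3L clone #2 (-0.00435 relative to the spike-ins) and a DUS3L clone difference of 0.10. For single isodecoders, centring gave tRNA-Cys-GCA-4-1 0.10 and tRNA-Cys-GCA-21-1 0.19 in DUS1L clone #2, tRNA-Cys-GCA-17-1 1.02 and 0.27 in the DUS2L clones, and tRNA-Cys-GCA-14-1 0.67 in DUS2L clone #1. Relative to the spike-ins tRNA-Cys-GCA-21-1 stood at 0.00348 in DUS1L clone #2 and -0.0761 in DUS3L clone #1, tRNA-Cys-GCA-17-1 at 0.26 and 0.18 in the DUS2L clones and tRNA-Cys-GCA-12-1 at -0.0618 in DUS3L clone #1. The centred clone difference of tRNA-Cys-GCA-6-1 was -0.23 in DUS1L, 0.17 in DUS2L and 0.11 in DUS3L. The centred DUS2L minus DUS1L difference was 0.0760 for tRNA-Cys-GCA-14-1, 0.31 for tRNA-Cys-GCA-12-1 and 0.62 for tRNA-Cys-GCA-16-1, and that of DUS3L minus DUS1L was -0.0530 for tRNA-Cys-GCA-12-1. DUS2L minus DUS3L was 0.35 for tRNA-Cys-GCA-4-1, 0.0717 for tRNA-Cys-GCA-17-1, 0.30 for tRNA-Cys-GCA-14-1, 0.36 for tRNA-Cys-GCA-12-1 and 0.0850 for tRNA-Cys-GCA-16-1. Beyond the reference itself, the cause was not tested.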
